A study of Mus musculus with 12 samples.

Results

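Immediate early genes are the genes that cells switch on first when serum, stretch, hormones or stress reach them, without needing new protein. Most encode transcription factors. FOS and JUN family proteins pair into AP-1, EGR proteins bind GC-rich promoter sites, NR4A1 is an orphan nuclear receptor, and IER2 and IER3 are small regulators of growth and survival. In heart muscle these genes are known to respond within minutes to pressure load and to handling of the tissue, and their mRNAs decay fast. Here 10 of them were described, chosen by name: Fos, Fosb, Jun, Junb, Atf3, Egr1, Egr2, Nr4a1, Ier2 and Ier3. Each was read from 1 probe, so the set holds 10 of the 55681 different probes on the array, and 10 of the 29774 genes or unnamed features that were tested. Fos alone was printed more than once, as 10 spots. All 10 probes passed the filter on dim probes: 9 were well above background on all 12 arrays, and Junb was on 10. None was saturated.

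The RNA came from the heart apex of male C57BL/6J mice aged 15 weeks. Every sample was labelled with 1 named Nkx2-5 allele over +, read here as wild type, and the named allele was control, I183M, I183P or delta. Nkx2-5 encodes a homeodomain factor of cardiac muscle. The labels do not say what the control allele carries or whether it is altered, and no sample was labelled wild type. Each of the 4 groups had 3 arrays, called here by group and replicate number, and the labels do not say that the replicates came from separate animals, so p-values measure only the spread between these samples. The apex holds several cell types, and in such tissue fewer cells of a type and less RNA per cell cannot be told apart.

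Levels are log2 processed intensities relative to the 75th percentile of the same array, so that 0 is the 75th percentile and each unit is a doubling. Probes differ in brightness, so levels are compared between arrays and not between genes. The array control 1 stood apart: 99.1% of its spots were well above background, against 51.2% to 75.2% on the others, and its 75th percentile was 1450 intensity units against 507 to 657. Next came delta 2 and I183M 1, with 75.2% and 72.8% of spots well above background, and 60.5% or less on the rest. Results that rest on control 1 are given with and without it. The arrays lay on 2 slides, each scanned once: slide 1 held the control and I183M arrays with I183P 1 and I183P 2, and slide 2 held I183P 3 with the 3 delta arrays. Control and delta, and I183M and delta, share no slide, so the slide and the delta allele cannot be told apart in those comparisons except through I183P. The level of Nkx2-5 was 4.51 to 4.73 in I183P, 4.54 to 4.62 in I183M, 3.77 to 3.93 in delta, and 4.45 and 4.56 in control 2 and control 3, with 3.11 in control 1. Delta minus control was -0.21 with all arrays (limma adjusted p = 0.868), -0.68 without control 1 (adjusted p = 0.0622), and -0.72 after normexp and quantile normalization, which passed (adjusted p = 0.0353). The place of the Nkx2-5 probe relative to the altered sequence is not given in the sources used here. The 9 cardiomyocyte markers were well above background on every array.

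The bases before the annotated start of 4 members are shown as examples. AP-1 and related factors such as CREB and ATF proteins bind TGACG in known promoters, EGR proteins bind GCGNGGGCG, and serum response factor binds the CArG box. Capitals mark these letters on either strand, so that CGTCA is TGACG read from the other strand. The sequences are those of RefSeq on GRCm38.p6, 5′ to 3′ in the direction of the gene. They cover chr12:85473740-85473889 on the plus strand for Fos, chr1:191183334-191183483 on the minus strand for Atf3 and chr15:101266696-101266845 on the plus strand for Nr4a1, the 150 bases before each start. For Egr2 the stretch is 30 bases at chr10:67537796-67537825 on the plus strand, before 3 of its 5 listed starts.
Fos: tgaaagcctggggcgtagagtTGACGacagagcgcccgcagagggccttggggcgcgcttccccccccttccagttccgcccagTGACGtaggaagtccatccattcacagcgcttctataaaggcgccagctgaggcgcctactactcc
Atf3: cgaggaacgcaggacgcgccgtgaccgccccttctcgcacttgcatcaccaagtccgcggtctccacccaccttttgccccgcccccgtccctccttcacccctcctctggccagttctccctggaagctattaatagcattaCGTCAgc
Nr4a1: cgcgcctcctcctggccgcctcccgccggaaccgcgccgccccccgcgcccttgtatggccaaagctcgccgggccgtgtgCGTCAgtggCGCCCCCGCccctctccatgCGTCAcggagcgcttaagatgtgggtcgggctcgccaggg
Egr2: tCCATATATGGgcagcgaCGTCAcgggtat

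The table of promoters held 8 of the 10 members. Counting both strands and any listed start, TGACG was in this window of 6 of the 8 (Fos, Fosb, Junb, Atf3, Egr2 and Nr4a1) and in 15.0% of all 27025 genes in the table. Its longer form TGACGT was in 3 of the 8 (Fos, Atf3 and Egr2) and in 5.86% of all genes. The CArG box, CC with 6 A or T and then GG, was in 1 of the 8, Egr2, and in 1.04% of all. GCGNGGGCG was in 2 of the 8, Fosb and Nr4a1, and in 4.36% of all, and TATAAA was in 1 of the 8, Fos, and in 8.89% of all. TGANTCA and TGACGTCA were in none of the 8, and in 4.96% and 1.58% of all genes. All the sequences printed above hold TGACG, while Jun and Ier3, which are not printed, matched none of the 7 motifs. These 7 motifs were chosen with the members' sequences in view, and a match is a description of letters.

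In the fit to all 12 arrays no immediate early gene passed the test in any of the 6 comparisons between groups, which does not show that their levels were equal. The differences ranged from -1.19 to 1.91 on the log2 scale. In limma's fit with Benjamini-Hochberg adjustment over the 29774 features, 0 of 10 members passed an adjusted p of 0.05 in each comparison. The smallest member adjusted p was 0.550 for delta against control, 0.564 for I183P against control and 0.876 for I183M against control. Without adjustment 3 members had a p under 0.05 in delta against control (Jun, Atf3 and Egr1), where 7.44% of features had it. In delta against I183P 1 member had it (Atf3), as did 2.79% of features, and none had it in the other 4 comparisons. Over all features the share called was 0.0739% in delta against control (22 features, all lower in delta), 0.00336% in I183P against control (1 feature), and 0% in I183M against control and in the 3 comparisons between altered alleles. The moderated F test over the 4 groups called 2 features (0.00672%) and no member.

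**Figure D1:**
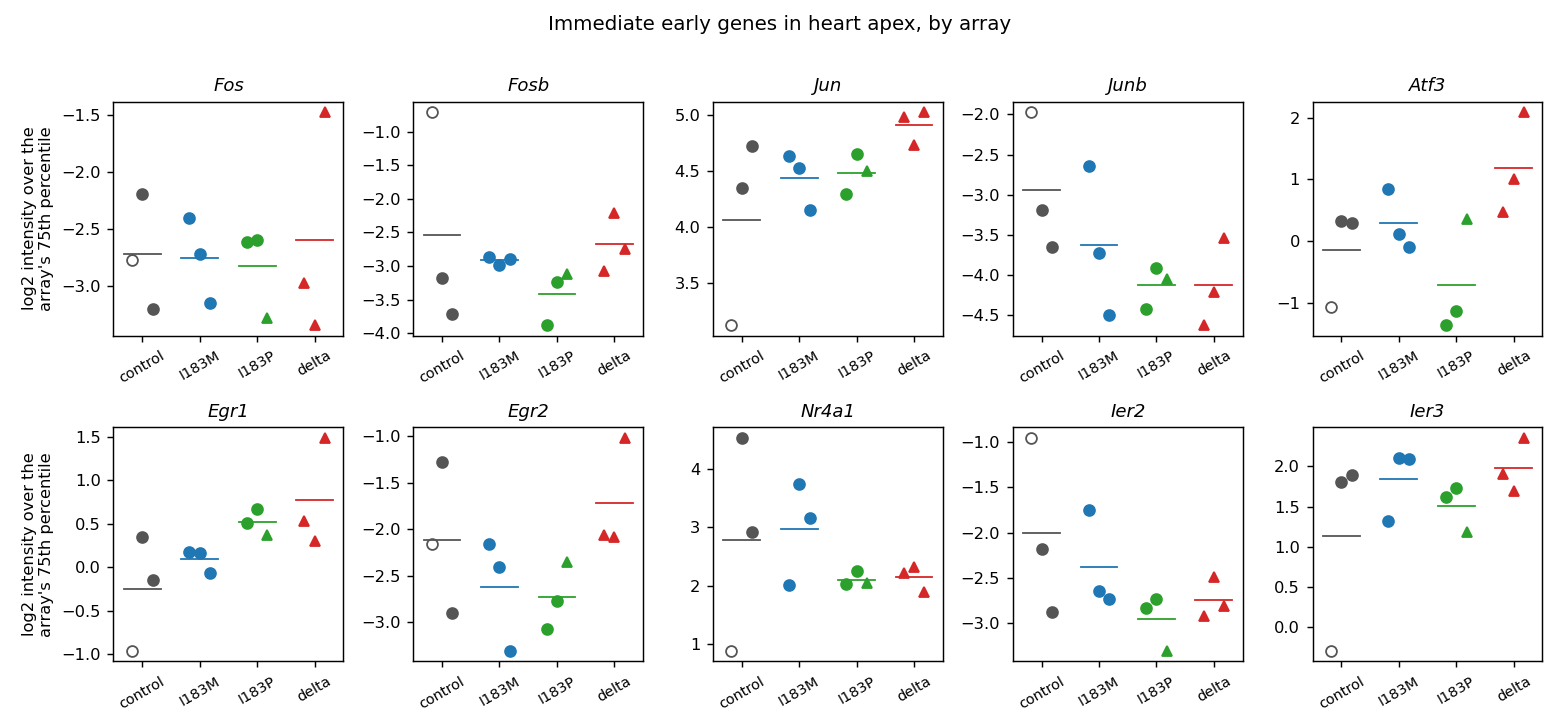
Level of each gene on each array, as log2 intensity over the array's 75th percentile (y axis, own scale for each gene), by group (x axis). Circles are slide 1, triangles slide 2, the open circle is control 1 and bars are group means; the delta arrays of Jun lie at 4.74 to 5.03, above the other 9 arrays.

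Among the AP-1 subunits, Jun, the main DNA-binding partner of FOS, was highest in the delta hearts. Its level was 4.98, 4.74 and 5.03 on delta 1, 2 and 3. It was 3.12, 4.35 and 4.73 on control 1, 2 and 3, 4.63, 4.53 and 4.15 on the I183M arrays, and 4.30, 4.65 and 4.50 on the I183P arrays. All 3 delta arrays lay above all other 9, but delta 2 and control 3 were nearly level, and control 1 was the lowest of the 12. Delta exceeded control by 0.85 (SE 0.37, 95% interval 0.02 to 1.67, 1.80-fold, n = 3 and 3), with a limma adjusted p of 0.659. Without control 1 the difference was 0.38, with an adjusted p of 0.409.

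Atf3, a stress-induced ATF family factor that can pair with JUN proteins, had the widest range of the members once control 1 was left out. Its level was 0.47, 1.01 and 2.09 on delta 1, 2 and 3, and -1.06, 0.32 and 0.29 on control 1, 2 and 3. It was 0.85, 0.11 and -0.09 on the I183M arrays. The I183P arrays split: -1.37 and -1.14 on I183P 1 and 2, which lay on slide 1, and 0.36 on I183P 3, which lay on slide 2. From the lowest array, I183P 1, to the highest, delta 3, the range was 3.46 log2 units.

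The delta arrays of Atf3 lay above all control and all I183P arrays and overlapped I183M. Delta exceeded control by 1.34 (SE 0.60, 95% interval 0.00 to 2.68, 2.54-fold) with a limma adjusted p of 0.671, and exceeded I183P by 1.91 (SE 0.60, 95% interval 0.57 to 3.25, 3.75-fold) with an adjusted p of 1.00. Without control 1 delta exceeded control by 0.89 (adjusted p = 0.533). With slide as a block the first difference turned to -0.27 and the second was 0.84, which is also its value within slide 2, on 3 delta arrays and 1 I183P array. Within I183P the array on slide 2 lay above those on slide 1, while I183M 1 on slide 1, at 0.85, lay above I183P 3 and delta 1 on slide 2. Beyond the block, the part of the slide in the result was not tested. No slide holds both delta and control.

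Fos, the AP-1 subunit best known as a marker of recent stimulation, did not follow the groups. Its level was -2.77, -2.19 and -3.20 on control 1, 2 and 3, -2.40, -2.72 and -3.14 on the I183M arrays, and -2.61, -2.59 and -3.28 on the I183P arrays. On delta 1, 2 and 3 it was -2.97, -3.34 and -1.48. The delta group thus held both the highest and the lowest array of the study, and all 4 groups overlapped. With normexp and quantile normalization delta 3 stayed highest and control 1 was lowest. Delta minus control was 0.12 (SE 0.48, 95% interval -0.96 to 1.20, limma adjusted p = 0.940).

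The 10 spots of the Fos probe give the spread between spots of 1 array, which leaves out labelling, hybridisation and scaling. Their SD within an array was 0.05 to 0.27, and the array means had a range of 1.87. On delta 3 the dimmest spot lay at -1.55, above the brightest spot of every other array, the highest of which was -2.07 on control 2. Before scaling, the mean over spots was 7.66 in log2 intensity on delta 3 and 7.73 on control 1. Spots of 1 array share its RNA and are no replicates of the group, and how far arrays of the same RNA would differ was not measured. No other member had repeated spots.

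**Figure D2:**
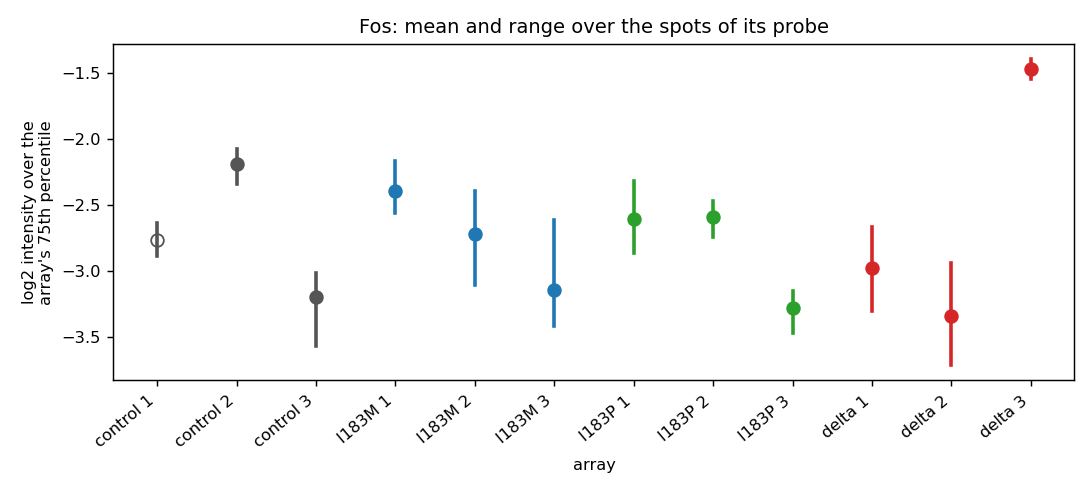
Mean (point) and range (line) of the level over the spots of the Fos probe on each array, in log2 intensity over the array's 75th percentile (y axis), for the 12 arrays (x axis); control 1 is the open point. Delta 3 at -1.48 lies above the range of every other array.

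Fosb and Junb, the other FOS and JUN family members, were both highest on control 1. Fosb was at -0.71 on control 1 and between -3.88 and -2.20 on the other 11 arrays. Junb was at -1.97 on control 1 and between -4.63 and -2.65 on the others, close to the background. Fosb was dim too: on these 11 arrays it was at 36.8 to 119 intensity units and Junb at 22.9 to 97.9. The medians of these arrays were 34.8 to 92.5 units. Fos, Egr2 and Ier2 were also dim, at 54.1, 52.6 and 66.6 units on their lowest arrays. With all arrays, delta minus control was -0.14 for Fosb and -1.19 for Junb. Without control 1 it was 0.77 for Fosb (95% interval 0.07 to 1.47, limma adjusted p = 0.290) and -0.71 for Junb (adjusted p = 0.555), so for Fosb the direction turned. After normexp and quantile normalization the Fosb difference without control 1 was 0.15 (limma adjusted p = 0.681). With normexp and quantile normalization Fosb stayed highest on control 1, while Junb there, at 6.68 in log2 intensity, lay below control 2 and control 3, at 7.41 and 7.20.

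Of the EGR genes, Egr1, a growth-factor-induced zinc finger activator, had the smallest adjusted p of the set in delta against control. Its level was 0.53, 0.31 and 1.49 on delta 1, 2 and 3, and -0.96, 0.34 and -0.14 on control 1, 2 and 3. It was 0.18, 0.17 and -0.06 on the I183M arrays and 0.51, 0.68 and 0.37 on the I183P arrays. The I183P arrays lay above all control and all I183M arrays, the delta arrays lay above all I183M arrays, and delta overlapped control by 1 array. Delta exceeded control by 1.03 (SE 0.38, 95% interval 0.18 to 1.87, 2.04-fold, limma adjusted p = 0.550), and I183P exceeded control by 0.77 (adjusted p = 0.564). Without control 1 these were 0.67 (adjusted p = 0.385) and 0.42 (adjusted p = 0.897).

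Egr2, the related factor whose CArG box is printed above, was highest on delta 3 and control 2, at -1.02 and -1.28. The other arrays lay between -3.31 and -2.06, with I183M 3 lowest. The delta arrays lay above all I183M and all I183P arrays, by 0.90 and 1.01 in the mean, but the adjusted p from limma was 1.00 in both. The lowest delta array, at -2.09, was close to the highest I183M array, at -2.16. Delta minus control was 0.39 (SE 0.48, 95% interval -0.69 to 1.47).

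Nr4a1, which encodes the orphan nuclear receptor NUR77, went its own way. Its level was 0.89, 4.53 and 2.91 on control 1, 2 and 3, a range of 3.64 units within 1 group that was 1.62 without control 1, and 2.01, 3.73 and 3.16 on the I183M arrays. The 6 I183P and delta arrays stayed between 1.89 and 2.32. With control 1, I183P and delta minus control were -0.67 and -0.63, with limma adjusted p of 0.597 and 0.827. Without it both groups lay below both remaining control arrays, by 1.61 log2 units for I183P and 1.57 for delta. In these comparisons the groups did not overlap for 30.6% and 34.3% of all features. The limma adjusted p was then 0.476 and 0.241, so neither passed. Without control 2 instead, both directions turned, to 0.21 for I183P and 0.25 for delta.

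Ier2 and Ier3, the small immediate early proteins, were again moved most by control 1, in opposite directions on this scale. Ier2 was at -0.96 there and between -3.30 and -1.75 elsewhere. Ier3 was at -0.30 there and between 1.18 and 2.35 elsewhere, highest on delta 3. Delta minus control was -0.73 for Ier2 and 0.85 for Ier3 with all arrays. Without control 1 it was -0.21 and 0.14, and the limma adjusted p was 0.774 and 0.827. With normexp and quantile normalization both were lowest of the control arrays on control 1, at 7.30 against 7.87 and 7.54 for Ier2 and at 8.84 against 11.15 and 11.17 for Ier3, in log2 intensity.

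**Figure D3:**
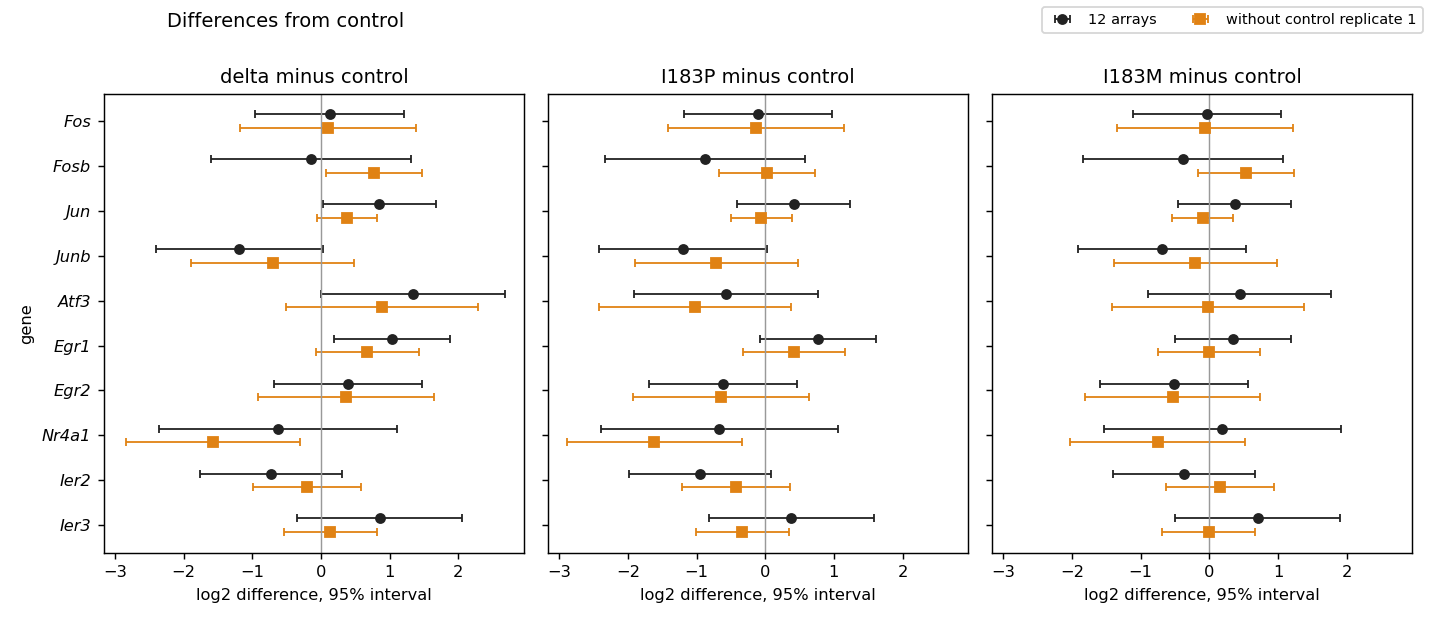
Difference of each gene (y axis) from control for delta, I183P and I183M, in log2 units with 95% intervals (x axis), from the fit to 12 arrays (black circles) and without control 1 (orange squares). Fosb in delta moves from -0.14 to 0.77, and Nr4a1 from -0.63 to -1.57.

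As a set, the members had a median difference of 0.26 in delta against control, -0.59 in I183P against control and 0.08 in I183M against control, where all features had medians of 0.05, -0.03 and 0.11. The last 2 depended on control 1 and on the scale: they were -0.38 and -0.04 without control 1, and 0.0070 and 0.042 after normexp and quantile normalization. In delta against I183P all 10 members were above 0, with a median of 0.34, where 68.1% of all features were above 0 and their median was 0.14. With normexp and quantile normalization 8 of 10 were above 0, where 52.8% of all features were, and with each array's median as the scale 5 of 10 were, where 29.6% of all features were. Groups that do not overlap were read against the same count over all features. In delta against control this held for Jun and Atf3, 2 of 10 members, against 13.9% of features, and without control 1 for 4 (Fosb, Jun and Atf3 higher, Nr4a1 lower) against 34.3%. In delta against I183M it held for 3 (Jun, Egr1 and Egr2) against 17.5%, and in delta against I183P for 4 (Fosb, Jun, Atf3 and Egr2) against 19.7%. In I183P against control it held for 2 (Egr1 higher, Junb lower) against 12.8%, in I183P against I183M for 2 (Egr1 higher, Fosb lower) against 24.5%, and in I183M against control for none against 3.95%. Without control 1, in I183P against control 1 member was higher (Egr1) and 3 lower (Junb, Nr4a1 and Ier3), against 30.6% of features. In I183M against control it then held for Fosb alone, against 32.3%. Same-numbered control and I183M arrays deviated together, though the labels do not say that they are paired. Within all 3 pairs of the same number Ier3 was higher and Junb and Egr2 lower in I183M, 3 of 10 members, where 24.0% of features kept 1 direction. Ier3 alone did so after normexp and quantile normalization, against 26.5%, and no member passed with the replicate number as a block. The members that do not overlap also changed with that normalization. It left Jun, Atf3 and Egr1 higher in delta against control (15.2% of features), Jun and Egr1 higher and Ier2 lower in delta against I183M (20.3%), and Jun, Atf3 and Ier3 higher in delta against I183P (20.0%). Egr1 alone was left in I183P against control (17.9%) and against I183M (22.8%), and no member in I183M against control (6.67%). Counts of 2 in 10 are close to these shares, and the counts of 3 and 4 have no test of their own.

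Most members varied more within groups than the median feature did. The within-group SD of the members had a median of 0.66 over all 12 arrays, where the median over all features was 0.45, and all 10 members lay above it. Without control 1 the medians were 0.50 and 0.28, and 9 of 10 members lay above, Jun being the exception with 0.21. After normexp and quantile normalization 6 of 10 lay above, and Fosb, Jun, Junb and Ier2 below. There Atf3, Nr4a1 and Ier3 had an SD of 0.86, 0.84 and 0.72, larger than that of 94.98%, 94.7% and 92.1% of features.

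Single arrays carried several members at once. Delta 3 was the highest of the 12 arrays for 6 of 10 members (Fos, Jun, Atf3, Egr1, Egr2 and Ier3). Control 2 was highest for Nr4a1 and second for Fos and Egr2. Over all features 15.3% were highest on delta 3 and 4.87% on control 2. Control 1 was highest for Fosb, Junb and Ier2 and lowest for Jun, Egr1, Nr4a1 and Ier3, where 44.6% of all features were highest and 41.3% lowest on it. Leaving it out, delta 3 stayed highest for 6, where 17.9% of all features were highest on it. I183M 1 was then highest for Junb and Ier2 and delta 2 for Fosb, where 18.7% and 20.5% of all features were highest on these arrays. After normexp and quantile normalization delta 3 was highest for 5 of 10 on 12 arrays and for 6 on 11, against 14.2% and 15.8% of all features. Control 1 was then highest for Fosb alone and lowest for 6 (Fos, Atf3, Egr1, Egr2, Nr4a1 and Ier3). Of all features 26.8% were highest and 41.0% lowest on it there.

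**Figure D4:**
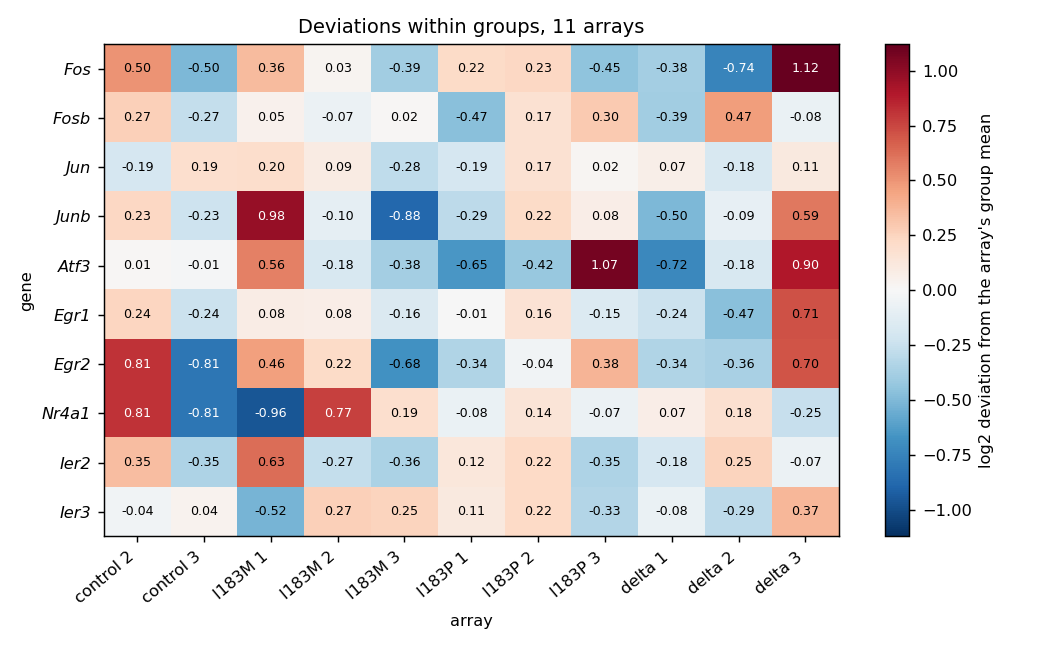
Deviation of each gene (rows) from the mean of its group on each of the 11 arrays other than control 1 (columns), in log2 units, red above and blue below. Fos reaches 1.12 and Egr1 0.71 on delta 3, while Nr4a1 is at -0.25 there.

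Within groups, the members fell into genes that moved together and genes that did not. The deviation from the group mean was correlated, over the 11 arrays without control 1, with the mean deviation of the other 9 members at r = 0.91 for Egr2, 0.80 for Egr1, 0.73 for Fos and 0.72 for Junb. It was 0.42 for Atf3, 0.34 for Ier2, 0.27 for Fosb and 0.18 for Jun, and -0.06 for Ier3 and -0.08 for Nr4a1. These values describe arrays whose genes share RNA, labelling and scale, and carry no test. With control 1 the order held at the top (0.85, 0.75 and 0.69 for Egr2, Egr1 and Fos), but Junb fell to 0.20. Fosb, Ier2 and Ier3 then turned sign, to -0.42, -0.18 and 0.07. After normexp and quantile normalization on 11 arrays Egr2, Egr1, Fos and Junb were at 0.95, 0.85, 0.82 and 0.78. The others ran from -0.05 for Jun to 0.38 for Fosb, with Atf3 at 0.14 and Ier3 at 0.34.

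Pair by pair, no correlation of levels passed. Of 45 pairs, 29 were positive on 12 arrays, with a median r of 0.19 and a highest r of 0.86 for Junb with Ier2 (Spearman rho 0.64). Its permutation p, adjusted by Benjamini-Hochberg over 45 pairs, was 0.0508, and r was 0.43 without control 1 and I183M 1, the arrays farthest from the Junb median. On 11 arrays 37 pairs were positive with a median r of 0.27. The highest were Atf3 with Egr2 (r = 0.74, rho 0.82, adjusted permutation p = 0.245 and 0.153) and Fos with Egr1 (r = 0.74, rho 0.45, adjusted permutation p = 0.245 and 0.681). The Fos and Egr1 relation was 0.38 without delta 2 and delta 3. After normexp and quantile normalization 5 of 45 pairs passed on 12 arrays by Pearson's r (Fos with Egr1, Egr2 and Junb, Egr1 with Egr2, and Junb with Ier2) and none by Spearman's rho, and none passed on 11 arrays by either.

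Other genes of the response were taken from lists of related genes. Of the other AP-1 family members, which include Jund, Atf4 and Maff, 10 of 10 were measured and none passed the test in any comparison. The same held for 32 of 34 other serum response genes, 14 of 14 feedback phosphatases and mRNA decay factors, 20 of 21 upstream kinases and factors, and 4 of 6 EGR and NR4A partners. In delta against control, 8 of 10 AP-1 genes were above 0 (median 0.21), as were 25 of 32 serum response genes (0.30) and 19 of 20 upstream genes (0.35), where 52.4% of all features were above 0. These counts rested on control 1: without it 6 of 10 AP-1 genes (median 0.10), 15 of 32 serum response genes (-0.03) and 13 of 20 upstream genes (0.05) were above 0, where 67.0% of all features were. Jund was 4.96, 4.99 and 5.14 on the delta arrays and 3.26, 4.60 and 4.95 on the control arrays, so that the lowest delta array was just above control 3, as for Jun. Atf4, an effector of the amino acid and unfolded protein responses, was at 6.38 on delta 3 and at 5.90 or below on every other array.

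Array by array, the other AP-1 genes, the other serum response genes, the phosphatases and decay factors, and the heat shock genes followed the members. The upstream genes ran the other way. The mean deviation of each list from its genes' own means was set against that of the 10 members over the 11 arrays other than control 1. Pearson's r was 0.89 for the other AP-1 genes, 0.85 for the other serum response genes and 0.81 for the phosphatases and decay factors, with Spearman's rho of 0.86, 0.79 and 0.85. It was 0.42 for the EGR and NR4A partners and -0.65 for the upstream kinases and factors, with rho of 0.53 and -0.59. Without control 2 and delta 3, the arrays farthest from the median, r was 0.79, 0.71 and 0.86 for the first 3 lists, and 0.60 and -0.66 for the partners and the upstream genes. After normexp and quantile normalization the values of the first 3 lists were 0.88, 0.73 and 0.60, and without those arrays 0.67, 0.57 and 0.10, so the last rests on them there. The partners were then at 0.64, and at 0.34 without those arrays. For the upstream genes r was -0.56, and -0.35 without those arrays. Heat shock genes, taken up below, had an r of 0.76 (rho 0.69) before that normalization, and 0.51 without those arrays. After it r was 0.76, and 0.39 without those arrays. These are descriptions, with no test, of lists chosen with earlier results of these arrays known.

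Markers of other cell types and of stress were set beside the arrays that stood out. Heat shock genes, of which 7 of 8 were measured and well above background on every array, had a mean deviation of 1.17 on delta 3, -1.03 on control 1 and -0.37 to 0.30 on the other 10. Hspa1a, the inducible HSP70 chaperone, was at 2.43 on delta 3 and between -2.92 and -0.37 on the other 11 arrays. Red blood cell markers, 5 of 6 measured, were highest on control 2 and delta 3, with mean deviations of 0.77 and 0.56, against -0.56 to 0.41 on the others. Neutrophil markers, 6 of 6 measured with Ngp below background on most arrays, were at 0.77 on delta 3, between -0.99 and 0.73 on the others. On 11 arrays r with the members was 0.44 for red blood cell and 0.45 for neutrophil markers. Without control 2 and delta 3 it was -0.50 and 0.08. After normexp and quantile normalization it was 0.57 and 0.22, and -0.31 and -0.75 without those arrays. Lymphocyte and macrophage markers had an r of 0.11 and -0.13 on 11 arrays. After that normalization and without those arrays it was -0.57 and -0.45. Smooth muscle, fibroblast and endothelial markers also ran the other way in some settings. Smooth muscle and pericyte markers had an r of -0.80 with the members on 11 arrays and -0.58 without control 2 and delta 3. Both were nearer 0 after normexp and quantile normalization (-0.70 and -0.18), so the relation rests on those arrays there. Fibroblast markers had an r of -0.59 (rho -0.58), and -0.23 without control 2 and delta 3. Endothelial markers had an r of -0.10, and -0.74 without those arrays. After normexp and quantile normalization r was -0.52 and 0.05 for the fibroblast markers, and -0.17 and -0.70 for the endothelial markers, in the same order. Mesothelial markers, 5 of 5 measured, were all higher in delta than in I183P, by a median of 1.78. Of all features 68.1% were higher in that comparison. No mesothelial marker passed the test, and as few as 2 of the 5 were well above background on an array. The part of these in the levels of the immediate early genes was not tested.

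**Figure D5:**
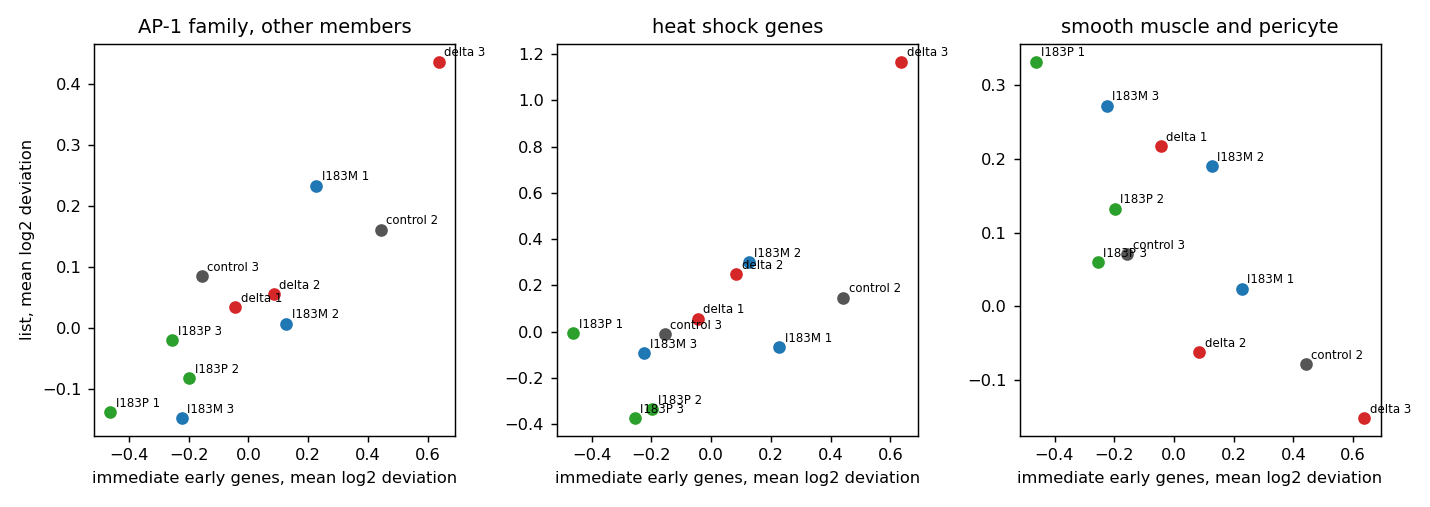
Mean log2 deviation of the other AP-1 family genes, the heat shock genes and the smooth muscle and pericyte markers (y axes, own scales) against that of the 10 immediate early genes (x axes), each point 1 of the 11 arrays other than control 1, coloured by group. Delta 3 lies at 0.64 for the immediate early genes and at 1.17 for the heat shock genes.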

How the data were processed

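Each RNA sample, labelled with Cy3, was hybridised to 1 of 12 Agilent arrays in a single colour, with 3 arrays per group. Per the file headers, Feature Extraction 11.0.1.1 (protocol GE1_1100_Jul11, probe layout on mm9) gave a background-corrected processed intensity per spot, deposited without normalization between arrays. The authors' deposited table of processed values is on a log2 scale by its match to the scanner values (array medians 6.89 to 6.94, rank correlation 0.961 to 0.998). Its centring is not stated, and per the submitters' processing notes limma was used.

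From the processed intensity, control and outlier spots were left out, spots of a probe averaged, log2 taken and the 75th percentile over spots subtracted. Probes well above background on at least 3 of 12 arrays were kept. A gene was read from its kept probe with the highest mean, and unnamed features were joined by accession. Names came from RefSeq's table for GRCm38.p6, which named 27235 probes. limma 3.58.1 in R 4.3.3 (lmFit, eBayes) was run on all 12 arrays with Benjamini-Hochberg adjustment and tested on simulated data. Permutation tests used 100000 resamples.

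The members, lists and tests were chosen with earlier results of these data known. Where to take the 75th percentile and how to join unnamed features were settled after counts from other versions had been seen, and no member passed in either version. Named genes are the members, Nkx2-5, up to 4 genes of each list with the smallest F test p, and the 8 genes most like the members. The 19 lists were 6 of related genes and 13 of cell type markers: adipocyte, atrial, cardiomyocyte, endothelial, fibroblast, lymphocyte, macrophage, mesothelial, neutrophil, red blood cell, skeletal muscle, smooth muscle, and neuron and Schwann cell. No gene of the 19 lists passed in any comparison.

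Same-numbered control and I183M arrays deviated together (r = 0.79, 0.56 and 0.50 over all features), while in the other pairs of groups at most 1 of 3 pairs exceeded 0.1. Deviations within a group cancel out, so 1 array far from the others can set the values of all 3 pairs. Control 1 and I183M 1 had the largest shares of spots well above background in their groups, 99.1% and 72.8%. The values therefore do not show that the numbers pair samples. The alternative background correction used the median signal column, since the files hold no mean signal column. The number of arrays limits the precision.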

Additional observations from a re-analysis of the deposited data

How the results depend on the processing

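The count of immediate early genes past an adjusted p of 0.05 was 0 in every comparison under the settings run beside the reported one, 28 in all, with 1 exception. With array weights 1 member passed in I183P against I183M: Nr4a1 had a difference of -1.08 (limma adjusted p = 0.0403), and the estimate of the weights stopped before it converged. The cause was not tested. Of the 28 settings 2 were added with the data in view, and both combine leaving out control 1 with another choice; a further addition of that kind concerns the correlations of members alone. Over all features the count in delta against control was 22 as reported, 27 after normexp and quantile normalization, 16 in the authors' deposited table of processed values, 55 with the 75th percentile over probes detected on all arrays, 76 with array weights, 7 with the replicate block, 11 after quantile normalization alone, 13 with no filter on dim probes, 10 with the mean of a gene's probes, 305 after normexp and quantile normalization without control 1, and 0 with slide as a block, with each array's median as the scale or with only the 6 arrays compared. With array weights it was 1887 in I183P against I183M, 397 in delta against I183M and 119 in I183P against control, against 0, 0 and 1 as reported. Under the other settings those 3 counts reached at most 0, 98 and 11, the last 2 after normexp and quantile normalization without control 1. Leaving out 1 array gave 0 to 52 in delta against control, 52 without control 1 and 0 without control 3 or delta 1. Each array's median as the scale moved the median of all features to 0.34, 0.76 and 0.43 in I183M, I183P and delta against control, and the 75th percentile over probes detected on all arrays moved it to -0.25, -0.39 and -0.34.

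The replicate block left 0 members past the threshold in every comparison and changed no call of a member. Same-numbered arrays deviated together in control and I183M alone, which does not show that the numbers pair samples. The median r over pairs of members was 0.19 on 12 arrays, 0.27 without control 1, 0.37 after normexp and quantile normalization, 0.27 with both, and for deviations from group means 0.20 on 12 arrays, 0.28 without control 1, 0.56 after normexp and quantile normalization (35 of 45 pairs above 0) and 0.31 with both. Recomputing the members' differences gave 1600 values, of which 162 had the opposite sign, none of them past the threshold. After normexp and quantile normalization, the sign turned in I183M against control for Fos (0.17), Jun (-0.036), Egr2 (0.019), Nr4a1 (-0.025) and Ier2 (0.064), in I183P against control for Fos (0.28) and Egr2 (0.083). The same held in I183P against I183M for Fos (0.12), Fosb (0.0030) and Egr2 (0.064), in delta against I183P for Junb (-0.14) and Ier2 (-0.13). After that normalization and without control 1, the sign turned in I183M against control for Fosb (0.026), Jun (-0.069), Egr1 (-0.0037) and Nr4a1 (-0.72), in I183P against control for Fosb (0.029), Jun (-6.85e-05) and Ier3 (-0.31), in delta against control for Fos (-0.082) and Fosb (0.15). It also turned there in I183P against I183M for Fos (0.12), Fosb (0.0030) and Egr2 (0.064), in delta against I183P for Junb (-0.14) and Ier2 (-0.13). With the 75th percentile over probes detected on all arrays, the sign turned in I183M against control for Egr1 (-0.013) and Nr4a1 (-0.17), in delta against control for Fos (-0.26). A turn was also seen in delta against I183P for Junb (-0.026). With array weights, the sign turned in I183M against control for Fos (0.063), Fosb (0.70), Jun (-0.38), Atf3 (-0.28) and Ier2 (0.12), in I183P against control for Fos (0.37), Fosb (0.23), Jun (-0.12) and Ier3 (-0.22), in delta against control for Fosb (0.87). The same held in I183P against I183M for Fos (0.31), Junb (0.13) and Egr2 (0.19), in delta against I183M for Junb (0.040) and Ier3 (-0.042), in delta against I183P for Junb (-0.091) and Nr4a1 (-0.036). With each array's median as the scale, the sign turned in I183M against control for Fos (0.20), in I183P against control for Fos (0.68), Atf3 (0.22), Egr2 (0.17) and Nr4a1 (0.12), in delta against control for Fosb (0.24). It also turned there in I183P against I183M for Fos (0.49), Fosb (0.061), Junb (0.056), Egr2 (0.45) and Ier3 (0.23), in delta against I183P for Fos (-0.18), Junb (-0.41), Egr1 (-0.15), Nr4a1 (-0.37) and Ier2 (-0.19). After quantile normalization alone, the sign turned in I183M against control for Fos (0.80), Jun (-0.048), Egr2 (0.37), Nr4a1 (-0.080) and Ier2 (0.039), in I183P against control for Fos (1.04), Atf3 (0.13) and Egr2 (0.52), in delta against control for Fosb (0.016). A turn was also seen in I183P against I183M for Fos (0.24), Fosb (0.024), Junb (0.076) and Egr2 (0.16), in delta against I183P for Fos (-0.20), Junb (-0.58) and Ier2 (-0.073). With slide as a block, the sign turned in I183P against control for Fos (0.12), in delta against control for Atf3 (-0.27) and Egr2 (-0.18), in I183P against I183M for Fos (0.15). The same held in delta against I183M for Fosb (-0.20), Atf3 (-0.71) and Ier2 (0.16), in delta against I183P for Junb (-0.071). With slide as a block and without control 1, the sign turned in I183M against control for Fosb (0.53), Jun (-0.099), Atf3 (-0.017), Egr1 (-0.0068), Nr4a1 (-0.75), Ier2 (0.16) and Ier3 (-0.0086), in I183P against control for Fos (0.094), Jun (-0.064) and Ier3 (-0.17), in delta against control for Fosb (0.33), Atf3 (-0.72), Egr2 (-0.20) and Ier2 (0.32). It also turned there in I183P against I183M for Fos (0.15), in delta against I183M for Fosb (-0.20), Atf3 (-0.71) and Ier2 (0.16), in delta against I183P for Junb (-0.071). In the authors' deposited table of processed values, the sign turned in I183M against control for Fos (0.34), Jun (-0.022), Junb (0.036), Egr2 (0.16), Nr4a1 (-0.034) and Ier2 (0.079), in I183P against control for Fos (0.45), Atf3 (0.013) and Egr2 (0.23), in delta against control for Fosb (0.0098). A turn was also seen in I183P against I183M for Fos (0.11), Fosb (0.0092) and Egr2 (0.070), in delta against I183P for Junb (-0.24) and Ier2 (-0.15). Within slide 1, the sign turned in I183P against control for Fos (0.12). The same held in I183P against I183M for Fos (0.15). Within slide 2, the sign turned in delta against I183P for Junb (-0.071). Leaving out 1 array turned the sign of 26 differences, whose lowest and highest values over the arrays left out follow. For I183M against control they were -0.97 to 0.53 for Fosb, -0.099 to 0.70 for Jun, -0.017 to 0.67 for Atf3, -0.0068 to 0.64 for Egr1, -0.75 to 1.07 for Nr4a1, -0.80 to 0.16 for Ier2, -0.0086 to 1.08 for Ier3 and -0.27 to 0.23 for Fos. They were -1.47 to 0.032 for Fosb, -0.054 to 0.75 for Jun, -0.34 to 0.76 for Ier3, -0.35 to 0.16 for Fos and -1.61 to 0.21 for Nr4a1 in I183P against control. For delta against control they were -0.73 to 0.77 for Fosb, -1.57 to 0.25 for Nr4a1, -0.44 to 0.50 for Fos and -0.0029 to 0.80 for Egr2. They were -0.27 to 0.15 for Fos, -0.45 to 0.12 for Egr2 and -0.097 to 0.14 for Jun in I183P against I183M. For delta against I183M they were -0.11 to 0.29 for Ier3 and -0.40 to 0.53 for Fos. They were -0.29 to 0.25 for Junb, -0.049 to 0.17 for Nr4a1, -0.33 to 0.60 for Fos and -0.100 to 0.49 for Egr1 in delta against I183P. No member was saturated. Junb, which was not well above background on 2 arrays, the dim probes of Fos, Fosb, Egr2 and Ier2, and the arrays' number limit what could be seen.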

Other observations

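The genes with a symbol, members aside, whose deviations from their group means were most like the mean of the 10 members over the 11 arrays other than control 1 were Errfi1 (r = 0.98), Tmem37 (0.97), Cebpd (0.95), Rabepk (0.95), Il4ra (0.94), Mm2pr (0.94), Icam1 (0.94) and Slc5a3 (0.93). Errfi1, a feedback inhibitor of the EGF receptor, and Cebpd, an inflammatory C/EBP factor, are themselves on the list of other serum response genes. Icam1 is an adhesion molecule and Il4ra an interleukin receptor chain. With control 1 the same values were lower: 0.64, 0.56, 0.70, 0.75, 0.92, 0.25, 0.70 and 0.42. After normexp and quantile normalization on 11 arrays they were 0.76, 0.72, 0.87, 0.89, 0.85, 0.72, 0.94 and 0.87. They are the highest of 17239 named features tested, so that high values are given by the choice.

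Atrial genes varied between these apex samples. Sln, which encodes the calcium pump regulator sarcolipin, ranged from -3.24 on control 2 to 5.42 on delta 1, and Myl4, an atrial myosin light chain, from 1.03 on I183P 3 to 6.72 on delta 1. The mean deviation of the 5 atrial markers was -2.40 on control 2 and -2.60 on I183P 3, and its r with the members over 11 arrays was -0.07. The mesothelial markers Msln and Upk3b, which mark the surface layer of the heart, were lowest on I183M 2 and I183P 3, at -2.27 and -3.24 for Msln.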
